A study of Homo sapiens with 16 samples.

Results

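The interferon regulatory factors are a family of transcription factors, and 8 of them are described here across 4 human bladder cancer cell lines: IRF1, IRF2, IRF3, IRF4, IRF5, IRF7, IRF8 and IRF9. They were taken by gene symbol and are 8 of the 35993 genes in the table. Transcripts were counted by RNA-seq in TCCSUP, 253J, J82 and RT112 cells, established lines labelled as wild type, after 48 h with CM-1758, an inhibitor of histone deacetylases, or with vehicle (0.01% DMSO). CM-1758 was given at the half-maximal inhibitory concentration worked out for each line, so that dose and line changed together. Each line is 1 cell population, TCCSUP was grown in another medium than the other lines, and each of the 8 groups held 2 libraries from separate experiments, 16 in all.

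All members bind DNA through a conserved N-terminal domain, and most of them carry signals of infection or of interferon to the nucleus. IRF3, IRF5 and IRF7 are switched on by phosphorylation when a cell senses foreign nucleic acid or other microbial products, and then drive interferon genes. IRF9 joins STAT proteins, STAT2 among them, in ISGF3, the complex through which type I interferon turns on its target genes at the interferon-stimulated response element. IRF1 is induced by interferon-gamma and acts mainly as an activator, while IRF2 binds the same sites and was first described as its antagonist. IRF4 and IRF8 are best known from B cells, dendritic cells and macrophages, where they act with partners such as SPI1.

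Sequence upstream of the start site was at hand for 5 of the 8 members, IRF1, IRF4, IRF5, IRF8 and IRF9, from RefSeq on GRCh38.p14. The 2 printed here, each the 250 bases before the annotated start, are the ones in which a gamma-activated site was found, the kind of element that STAT dimers bind, searched as TTCNNNGAA on both strands. Capitals mark that match.
IRF1, chr5:132490774-132491023, minus strand: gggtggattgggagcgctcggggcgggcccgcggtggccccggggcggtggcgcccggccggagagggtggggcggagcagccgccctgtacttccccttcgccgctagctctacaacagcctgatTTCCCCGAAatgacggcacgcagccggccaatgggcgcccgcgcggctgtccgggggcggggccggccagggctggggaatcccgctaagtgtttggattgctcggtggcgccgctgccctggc
IRF9, chr14:24161015-24161264, plus strand: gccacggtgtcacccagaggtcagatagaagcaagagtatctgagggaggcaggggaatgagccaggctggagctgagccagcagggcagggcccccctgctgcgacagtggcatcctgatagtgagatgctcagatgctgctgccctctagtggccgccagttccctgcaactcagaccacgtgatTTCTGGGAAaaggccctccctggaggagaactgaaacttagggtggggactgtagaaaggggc

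The match TTCCCCGAA began 124 bases before the start of IRF1, and TTCTGGGAA began 63 bases before the start of IRF9. Of the 35116 promoter windows of 300 bases in the table, 7.66% held such a match. The response element bound by ISGF3, searched as GAAANNGAAA on both strands, was found in 3.57% of all windows and in none of those of the 5 members, which says only that these letters are not in these windows. The windows also differed in CG dinucleotides, whose median over all windows was 14. IRF1 held 36 and IRF4 held 32, the 4 starts of IRF5 held 25, 34, 8 and 5, IRF9 held 7, and the 2 starts of IRF8 held 3 and 9. IRF2, IRF3 and IRF7 had no entry.

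Total counts ran from 22506431 to 32537104 per library. The correlation of log2 CPM (the read count relative to the TMM-normalized library size) between the 2 libraries of a group was 0.983 to 0.991 across genes, lowest in treated TCCSUP. By the chi-square of the counts over its degrees of freedom, control J82 held the least alike pair (67.1, and 10.9 to 46.1 in the other groups). Of 13 epithelial and urothelial markers, KRT18 was high in every control group, with means of 855 to 2330 CPM. The urothelial marker UPK2 was counted in control cells of RT112 only, at 4.3 CPM, UPK3A had no count in any control library, and GATA3 averaged under 1 CPM in control cells of 253J (0.374 CPM) and J82 (0.76 CPM). RNA came from whole cultures, so fewer cells that make a transcript and less of it per cell cannot be told apart.

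In control cells the members differed in which line held most of them. Per kilobase of exon, the scale on which genes can be compared, IRF7 led in J82 with 108 CPM per kb, followed by IRF9 with 43.4 and IRF3 with 22.7. IRF9 led in TCCSUP with 22 CPM per kb and IRF3 in RT112 with 20.4. In 253J, IRF1 led with 12 CPM per kb. IRF4 and IRF8 were at most 0.0453 CPM per kb in every control group.

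**Figure D1:**
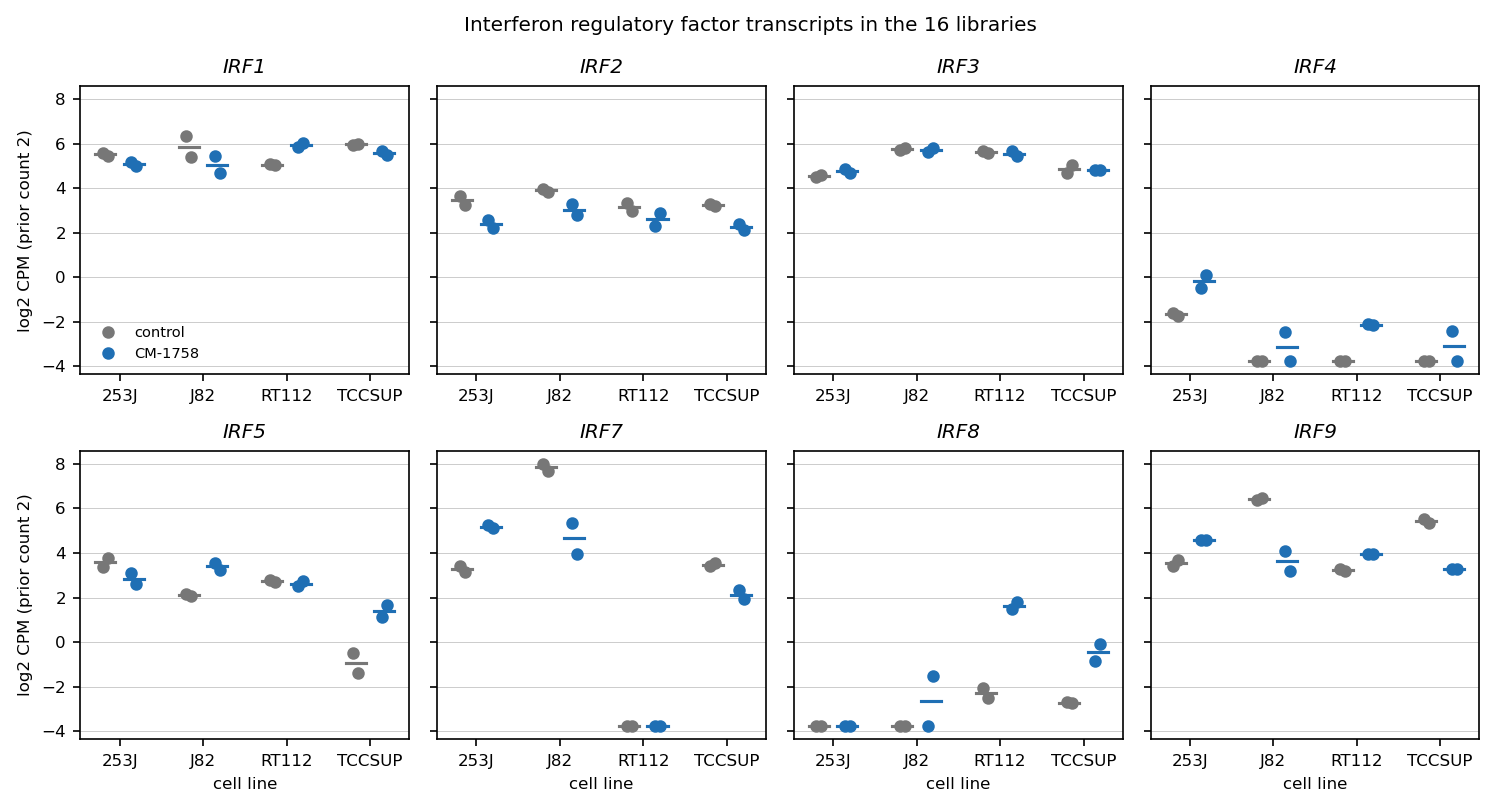
Level of each of the 8 members in every library, as log2 CPM with a prior count of 2 (vertical axis), for control (grey) and CM-1758 (blue) libraries of the 4 lines, with a bar at each group mean. IRF7 and IRF9 lie highest in control J82, IRF7 sits at the lower limit in all 4 RT112 libraries, and IRF4 and IRF8 lie near that limit outside a few treated groups.

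The control level differed between the 4 lines for 7 of 8 members in edgeR's F test with Benjamini-Hochberg adjustment, where 78.8% of all 21297 tested genes did. IRF8 was the exception (edgeR adjusted p = 0.0711). IRF4 counts among the 7 (edgeR adjusted p = 0.0101) on 7 and 6 control reads in 253J and 0 in the control libraries of the other lines. Between pairs of control lines the share of genes that differed was 53.1% for 253J with J82 or with TCCSUP, 54.3% for 253J with RT112, 52.1% for J82 with RT112, 48% for J82 with TCCSUP and 51.5% for RT112 with TCCSUP. IRF7 averaged 230.5 ± 34.8 CPM (SD, n = 2) in control J82, 20.8-fold above TCCSUP and 23.7-fold above 253J (edgeR adjusted p = 4.19e-07 and 1.9e-07). TCCSUP, at 11.1 CPM, and 253J, at 9.70 CPM, did not differ beyond their spread for IRF7 (edgeR adjusted p = 0.689). For IRF9 the order was J82 with 85.3 CPM, TCCSUP with 43.2, 253J with 11.7 and RT112 with 9.38, and only the last pair of neighbours did not differ (edgeR adjusted p = 0.226).

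IRF5 ran in another order. It was highest in 253J with 11.9 CPM and lowest in TCCSUP with 0.470 CPM, 25.3-fold apart, and RT112 (6.62 CPM) and J82 (4.26 CPM) between them did not differ (edgeR adjusted p = 0.0683). IRF3 fell into a higher pair, J82 with 54.4 CPM and RT112 with 48.8 CPM, and a lower pair, TCCSUP with 29.5 CPM and 253J with 23.4 CPM. Neither pair differed within itself (edgeR adjusted p = 0.394 and 0.0699), and J82 was 1.85-fold above TCCSUP and RT112 1.65-fold above it.

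IRF1 was spread over a narrower range, from 33.3 CPM in RT112 to 62.2 CPM in TCCSUP. RT112 was lower than TCCSUP and J82 (edgeR adjusted p = 0.00771 and 0.00905), while 253J was not shown to differ from another line. IRF2 was highest in J82 with 14.9 CPM and lay between 8.85 and 11 CPM elsewhere. Its difference over the 4 lines was close to the limit (edgeR adjusted p = 0.0435) and was lost with either other scaling (0.0768 with RLE size factors and 0.144 with library size alone). That of IRF1 (edgeR adjusted p = 0.0146) was lost with library size alone (0.0773) and without control replicate 1 or 2 of RT112 (0.0612 and 0.0768).

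The absence of IRF7 from RT112 was complete in these counts. All 4 RT112 libraries held 0 reads of it, where 3 counts would stand for 0.098 to 0.117 CPM. Its lowest group mean in another line was 4.36 CPM, and 9408 genes had at least that level in every group of the other lines. Of those genes 9 had no count in any RT112 library: AK5, ALPK2, C3orf14, CA12, CDKN2B-AS1, IRF7, MIR31HG, MTAP and RTL8B, a list drawn up after its values were seen. PHRF1, the gene next to IRF7, was counted in RT112 at 37.9 CPM in control and 36.6 CPM with CM-1758. The neighbour on the other side, CDHR5, had at most 2 counts in any library of the 4 lines.

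With CM-1758, 2 members rose and 2 fell in 253J at an adjusted p under 0.05, where 51.3% of all tested genes were called. In J82, 1 rose and 4 fell, against a background of 42.5%. RT112 had 4 that rose and 0 that fell, against 47.7% in either direction and 20.2% that fell. In TCCSUP, 2 rose and 3 fell, against 54.1%. Members with counts numbered 7 in 253J and RT112 and 8 in J82 and TCCSUP, and no statement about the family as a whole follows from these shares. IRF4 entered the test through treated 253J, and IRF8 through treated RT112 and treated TCCSUP, the groups where they are high. For RT112 the members' median log2 fold change was 0.71, for 253J 0.23, for TCCSUP -0.23 and for J82 -0.45, beside 0.12, 0.10, 0.20 and 0.05 for all tested genes. At the stricter thresholds of the study's own gene lists, a log2 fold change beyond 2 and an adjusted p under 0.01, 5 changes passed: IRF7 and IRF9 in J82, IRF5 and IRF9 in TCCSUP and IRF8 in RT112, with 12.9%, 10.1%, 12.8% and 17.5% of all genes past them in 253J, J82, RT112 and TCCSUP.

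**Figure D2:**
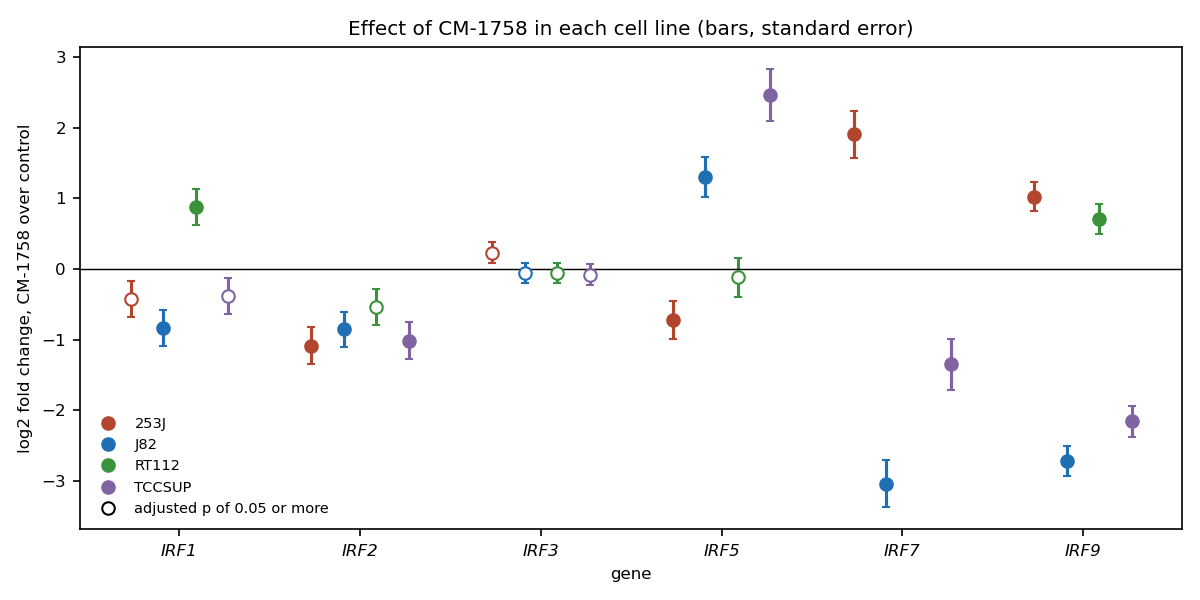
Log2 fold change of CM-1758 over control (vertical axis) with its standard error for the 6 members with enough counts in most lines, by cell line (colour), open where the adjusted p was 0.05 or more. IRF7 and IRF9 rise in 253J and fall in J82 and TCCSUP, IRF2 lies below 0 in all 4 lines, and IRF3 lies near 0.

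IRF9, the DNA-contacting subunit of ISGF3, moved in opposite directions between lines. In the 253J libraries it stood at 10.6 and 12.9 CPM in control and 23.7 and 24.0 CPM with CM-1758. J82 held 82.1 and 88.5 CPM in control and 16.8 and 9.14 CPM with CM-1758. The treated values lay above both controls in 253J and far below both in J82. RT112 held 9.71 and 9.04 CPM in control and 15.4 and 15.3 CPM with CM-1758, and TCCSUP held 45.9 and 40.4 against 9.69 and 9.68 CPM. The groups overlapped in none of the 4 lines, which was the case for 73%, 62.7%, 74.3% and 78.5% of all tested genes in 253J, J82, RT112 and TCCSUP.

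IRF9 therefore rose 2.03-fold in 253J (log2 fold change 1.02, SE 0.21, edgeR adjusted p = 0.000804) and 1.63-fold in RT112 (0.71, SE 0.21, adjusted p = 0.0126). It fell 6.58-fold in J82 (log2 fold change -2.72, SE 0.21, edgeR adjusted p = 2.61e-07) and 4.46-fold in TCCSUP (-2.16, SE 0.21, adjusted p = 1.21e-06). The J82 value was the 272nd lowest of 21297 log2 fold changes. The effect differed between lines (edgeR interaction adjusted p = 1.78e-07), as it did for 51.9% of tested genes. The rise in RT112 was lost without control replicate 2 of that line (edgeR adjusted p = 0.0785), and the other changes of IRF9 were called under every alternative run. Group means ran from 9.38 to 85.3 CPM in control and from 9.68 to 23.8 CPM with CM-1758.

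IRF7, often called the master regulator of type I interferon genes and itself an interferon-induced gene, showed the largest fall among the members. Its J82 control libraries held 255 and 206 CPM and the treated ones 40.7 and 15.6 CPM. In 253J it stood at 10.7 and 8.69 CPM in control and 38.5 and 34.2 CPM with CM-1758. TCCSUP held 10.4 and 11.7 CPM in control and 4.98 and 3.74 CPM with CM-1758. In none of these 3 lines did the groups overlap, and RT112 had no counts to compare.

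The fall of IRF7 in J82 was 8.2-fold (log2 fold change -3.03, SE 0.33, edgeR adjusted p = 1.25e-05), the 234th lowest of all. The log2 fold change was -3.81 without CM-1758 replicate 1 of J82 and -2.5 without replicate 3, called in both. In TCCSUP it fell 2.54-fold (-1.35, SE 0.36, edgeR adjusted p = 0.00668), a call that was lost without CM-1758 replicate 2 of that line (adjusted p = 0.0616). In 253J it rose 3.74-fold (1.90, SE 0.33, edgeR adjusted p = 0.000355). Calling a gene higher in 1 line and lower in another, as for IRF1, IRF5, IRF7 and IRF9, occurred for 12.9% of tested genes. The interaction of IRF7 had an edgeR adjusted p of 2.02e-05, and RT112, without a read of IRF7, holds no effect to compare in it.

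STAT2, the partner of IRF9 in ISGF3, singled out after its values were seen, moved with the same signs as IRF9. It changed by 1.12, -1.85, 0.82 and -0.72 on the log2 scale in 253J, J82, RT112 and TCCSUP, all past the limit (the highest edgeR adjusted p was 0.00157). In control J82, STAT2 stood at 389 and 318 CPM, while the control means of 253J, RT112 and TCCSUP were 54.1, 76.5 and 147 CPM. These lines share their control libraries between the comparison of control levels and the effect of CM-1758. Both genes were measured in the same libraries, and their likeness was not tested.

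Of 20 interferon-stimulated genes that ISGF3 is known to bind, 20 fell and 0 rose in both J82 and TCCSUP, where 18.5% and 22.1% of all tested genes fell. Their medians on the log2 scale were -3.5 for J82 and -2.39 for TCCSUP. In the lines where IRF9 rose the genes were split: 3 rose and 9 fell in 253J (median -0.29), and 8 rose and 7 fell in RT112 (median 0.08). Of all tested genes, 28.8% rose and 22.4% fell in 253J, and 27.4% rose and 20.2% fell in RT112. The list was chosen with earlier results of these data known. Together its 20 genes stood at 9280 to 11300 CPM in control libraries of J82 and 2060 to 2440 CPM in those of TCCSUP. In control 253J and RT112 they stood at 316 to 331 and 315 to 328 CPM. The falls are thus counted from the groups where these genes are high, and the shares are no test of the list. BST2, which tethers budding virions at the cell surface, rose in 253J, from 0.0957 to 2.32 CPM, and in RT112 (log2 fold change 4.58 and 1.94) and fell in J82 and TCCSUP (-1.56 and -1.65). IFI6 changed in the same directions, by 1.94, -1.5, 3.05 and -1.42 in 253J, J82, RT112 and TCCSUP. IFIT3, whose product stabilizes IFIT1 on viral RNA, fell in all 4 lines (log2 fold change -2.47, -4.66, -1.86 and -5.34). MX1, an antiviral GTPase, fell in J82, RT112 and TCCSUP (-4.61, -1.31 and -4.45), and its value of -1.5 in 253J did not pass (edgeR adjusted p = 0.0641).

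**Figure D3:**
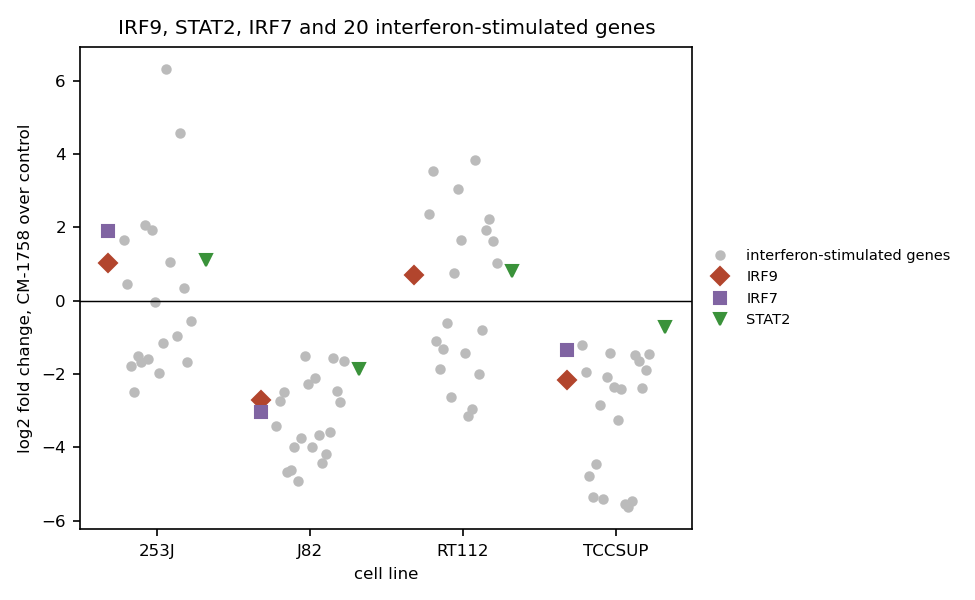
Log2 fold change of CM-1758 over control (vertical axis) in each line for IRF9, IRF7 and STAT2 and, in grey, for 20 interferon-stimulated genes, each a point. All 20 grey points lie below 0 in J82 and TCCSUP and on both sides of 0 in 253J and RT112, and RT112 has no point for IRF7.

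IRF1 and IRF2 compete for the same sites. IRF1 stood at 47.4 and 43.8 CPM in 253J control and 35.6 and 32.1 CPM with CM-1758. In TCCSUP the values were 60.7 and 63.7 CPM against 51.0 and 44.8 CPM. Both lines had lower treated values with no overlap, yet the change passed in neither (log2 fold change -0.43, SE 0.25, edgeR adjusted p = 0.175 in 253J, and -0.38, SE 0.25, adjusted p = 0.224 in TCCSUP). With each line fitted alone it passed in both, in edgeR (adjusted p = 0.0161 in 253J and 0.0076 in TCCSUP) and in DESeq2 (0.0357 and 0.0187). It also passed in both with a replicate block (edgeR adjusted p = 0.0103 and 0.0186). RT112 went the other way, with 34.0 and 32.6 CPM in control and 58.0 and 64.1 CPM with CM-1758, a 1.83-fold rise (0.88, SE 0.25, edgeR adjusted p = 0.0107).

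J82 was the least settled line for IRF1. Its control libraries held 80.5 and 41.6 CPM and its treated libraries 42.9 and 25.4 CPM, so that the groups overlapped. The fall of 0.84 on the log2 scale was called (SE 0.25, edgeR adjusted p = 0.0151), but without control replicate 1 it was 0.29 (log2 fold change -0.29, adjusted p = 0.35) and without CM-1758 replicate 3 it was -0.51 (adjusted p = 0.172). With J82 fitted alone the call was lost as well, with an adjusted p of 0.0941 in edgeR and 0.0581 in DESeq2. Other alternatives went the opposite way. The log2 fold change was -0.81 with a replicate block (edgeR adjusted p = 0.000166) and -1.24 without control replicate 3. The rise in RT112 was lost when either control library or CM-1758 replicate 2 was left out (edgeR adjusted p = 0.0502, 0.0628 and 0.0595). The effect on IRF1 differed between the 4 lines (edgeR interaction adjusted p = 0.00528) but not between the 3 lines other than RT112 (0.59), a test chosen after seeing the data.

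IRF2 fell in 3 lines. Control and treated libraries held 12.5 and 9.50 against 5.90 and 4.52 CPM in 253J, and 15.5 and 14.3 against 9.59 and 6.90 CPM in J82. They held 9.94 and 7.76 against 4.85 and 7.36 CPM in RT112, and 9.73 and 9.11 against 5.09 and 4.25 CPM in TCCSUP. Every treated value lay below both controls of its line, in RT112 by the smallest margin. The fall was 2.12-fold in 253J (log2 fold change -1.08, SE 0.26, edgeR adjusted p = 0.0025), 1.8-fold in J82 (-0.85, SE 0.25, adjusted p = 0.0125) and 2.02-fold in TCCSUP (-1.01, SE 0.26, adjusted p = 0.00426). In RT112 the value was -0.54 (SE 0.26, edgeR adjusted p = 0.0979). The call in J82 was lost without CM-1758 replicate 3 of that line (adjusted p = 0.121).

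The effect on IRF2 was not shown to differ between lines (edgeR interaction adjusted p = 0.541). Fitted as 1 effect common to the 4 lines it was -0.87 (SE 0.15, edgeR adjusted p = 0.000357), with IRF2, IRF4 and IRF8 called among the members and 52.9% of all tested genes called. IRF2 alone of these was lower, as were 20.5% of tested genes, and 32.4% were higher. IRF4 and IRF8 had too few reads in some lines for such an effect to stand for all 4.

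The balance of the pair can be read as the difference of IRF1 and IRF2 in log2 CPM within a library. It was 1.91 and 2.20 in 253J control and 2.58 and 2.81 with CM-1758. In J82 it was 2.38 and 1.54 in control and 2.15 and 1.87 with CM-1758, the only line with overlap. RT112 held 1.77 and 2.06 in control and 3.56 and 3.11 with CM-1758, and TCCSUP 2.63 and 2.80 against 3.31 and 3.38. The mean change over lines was 0.69, a 1.61-fold shift toward IRF1 (two-sided exact permutation test within lines, p = 0.00617, where 0.00154 is the smallest this design can give). By line the change was largest in RT112 with 1.42, similar in 253J (0.64) and TCCSUP (0.63) and 0.05 in J82.

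**Figure D4:**
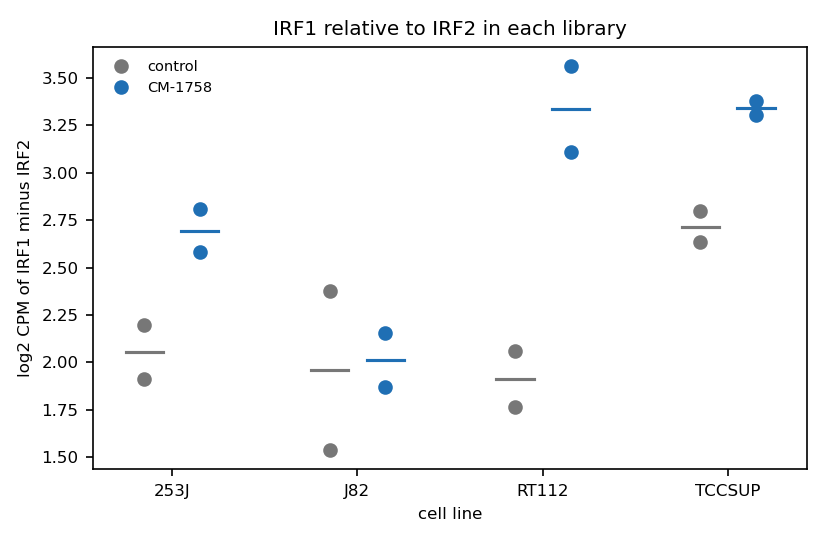
Difference of IRF1 and IRF2 in log2 CPM (vertical axis) in each control (grey) and CM-1758 (blue) library of the 4 lines, with bars at the group means. Treated libraries lie above both controls in 253J, RT112 and TCCSUP and between them in J82.

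Of 13 genes known as IRF1 targets, 4 rose and 4 fell in 253J, 3 rose and 8 fell in J82, 6 rose and 3 fell in RT112, and 2 rose and 7 fell in TCCSUP. Of all tested genes, 28.8%, 24%, 27.4% and 32% rose in 253J, J82, RT112 and TCCSUP, and 22.4%, 18.5%, 20.2% and 22.1% fell. The medians of the 13 genes were 0.00, -1.45, 0.68 and -0.996 on the log2 scale. CD274, which encodes PD-L1, rose in RT112 (log2 fold change 2.98), J82 (0.88) and 253J (0.47) and stood at -0.08 in TCCSUP (edgeR adjusted p = 0.676). CDKN1A, the cell cycle inhibitor p21, rose in J82, TCCSUP and 253J (3.41, 2.21 and 1.29). TNFSF10, the death ligand TRAIL, fell in all 4 lines (-2.34 to -1.53). CASP1, the inflammatory caspase, fell in J82, RT112 and TCCSUP (-2.65, -3.68 and -3.84), and had no counts in 253J. The list is written from general knowledge, and its members answer to other factors too.

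IRF3, the constitutive member that is held in the cytoplasm until phosphorylated, was the steadiest. Its libraries ran from 22.9 to 29.1 CPM in 253J, 48.5 to 56.4 CPM in J82, 43.0 to 51.0 CPM in RT112 and 25.9 to 33.03 CPM in TCCSUP, control and treated together. Control and treated values overlapped in J82, RT112 and TCCSUP. The log2 fold changes were 0.23 (SE 0.15) in 253J, -0.06 (SE 0.14) in J82, -0.05 (SE 0.14) in RT112 and -0.08 (SE 0.15) in TCCSUP, with edgeR adjusted p of 0.205, 0.827, 0.809 and 0.679. The sign of the last 3 depended on the scaling. With library size alone, which raised the median log2 fold change of all genes by 0.27, 0.14, 0.15 and 0.31 in 253J, J82, RT112 and TCCSUP, they were 0.09, 0.09 and 0.23, and IRF3 then passed in 253J (0.50, edgeR adjusted p = 0.00793).

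IRF5, which acts downstream of Toll-like receptors and MYD88, changed in opposite directions. TCCSUP held 0.633 and 0.306 CPM in control and 2.13 and 3.07 CPM with CM-1758. J82 held 4.44 and 4.07 CPM in control and 11.8 and 9.24 CPM with CM-1758. Both treated groups lay clear of their controls. It fell in 253J, from 10.3 and 13.6 CPM to 8.39 and 6.07 CPM, and RT112 overlapped, with 6.86 and 6.37 against 5.67 and 6.52 CPM.

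The rise of IRF5 was 5.51-fold in TCCSUP (log2 fold change 2.46, SE 0.37, edgeR adjusted p = 5.68e-05), where control libraries held only 16 and 8 reads. Its log2 fold change there was 2.02 to 3.06 over libraries left out, highest without control replicate 1. In J82 the rise was 2.47-fold (1.30, SE 0.28, edgeR adjusted p = 0.00151). The fall in 253J was 1.65-fold (-0.72, SE 0.27, edgeR adjusted p = 0.0354). It was lost with library size alone (adjusted p = 0.182), without control replicate 3 (0.231) and without CM-1758 replicate 3 of that line (0.242). In RT112 the value was -0.12 (SE 0.27, edgeR adjusted p = 0.772), and 0.03 with library size alone. Effects differed between lines (edgeR interaction adjusted p = 0.000128). With CM-1758 the group means ran from 2.60 to 10.5 CPM, against 0.470 to 11.9 CPM in control.

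IRF8 was close to absent from control cells and appeared with CM-1758 in RT112. Reads there numbered 5 and 3 in control and 69 and 88 with CM-1758, or 0.163 and 0.102 CPM against 2.70 and 3.36 CPM. In TCCSUP they numbered 2 and 2 in control and 13 and 22 with CM-1758. No library of 253J held a read, and J82 held 8 in CM-1758 replicate 3 and 0 in its other libraries. The treated libraries of RT112 and TCCSUP were each above both controls.

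In RT112 the summed counts per normalized library rose 22.8-fold (95% interval of the counting error 11.3 to 53.7), called with a log2 fold change of 4.46 (SE 0.83, edgeR adjusted p = 0.000865) under every alternative that kept the gene. In TCCSUP the ratio was 8.63 (3.08 to 33.4) from 4 control reads in all (log2 fold change 3.04, SE 0.97, edgeR adjusted p = 0.0195). That call was lost with DESeq2 over all lines (adjusted p = 0.0539) and without control replicate 1, control replicate 2 or CM-1758 replicate 2 of TCCSUP (edgeR adjusted p = 0.0841, 0.09 and 0.101). The interaction, with an edgeR adjusted p of 0.766, did not show that the effect on IRF8 differs between lines. The effect common to lines was 3.88 (edgeR adjusted p = 0.000592). IRF8 entered the test through treated RT112 and treated TCCSUP, and with so few control reads it could hardly be called lower. These calls, and their survival under the alternatives, are therefore not independent support for a rise.

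IRF4 was counted in control cells of 253J only. It had 7 and 6 reads there in control and 16 and 30 with CM-1758, a ratio of 3.46 (95% interval 1.84 to 6.99), which did not pass (log2 fold change 1.75, SE 0.88, edgeR adjusted p = 0.118). In RT112 it had 0 and 0 reads in control and 4 and 4 with CM-1758, at least 1.55-fold higher against 3 counts per library. That call was at the limit (edgeR adjusted p = 0.0477) and was lost under 12 of 22 alternatives. J82 and TCCSUP each held 3 reads in 1 treated library and 0 in the others. The common effect was 2.61 (edgeR adjusted p = 0.0067), and at such counts the fitted size depends on the prior count. With control reads in 253J only, that value does not stand for an effect shown in each line.

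**Figure D5:**
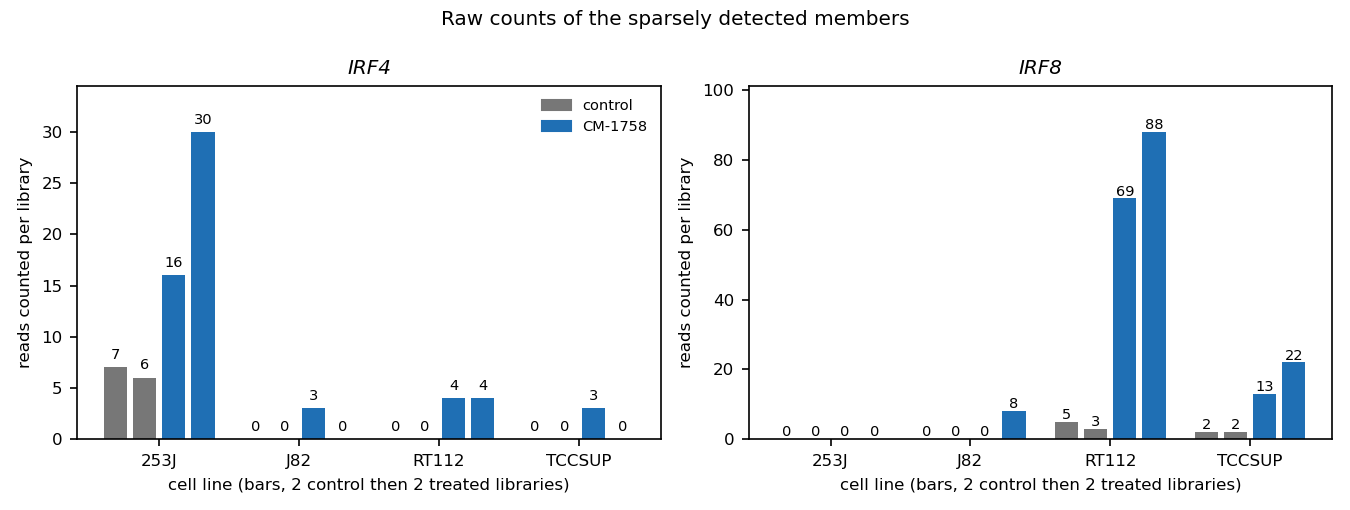
Raw reads of IRF4 and IRF8 (vertical axis, from 0) in each library, with 2 control bars (grey) followed by 2 CM-1758 bars (blue) per line. Reads of IRF8 in RT112 go from 5 and 3 to 69 and 88, and those of IRF4 in 253J from 7 and 6 to 16 and 30.

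Some markers of blood cells, in which IRF4 and IRF8 are usually studied, rose in the same libraries. Of 12 on the list 7 were tested, and 5 rose in TCCSUP, 4 in RT112 as in 253J and 3 in J82, where 32%, 27.4%, 28.8% and 24% of all tested genes rose. FLT3 and CD3D averaged at most 0.0363 and 0.102 CPM in control groups and entered the test through treated groups. Such markers can hardly be called lower, so these counts are no test of the list. The summed level of the 12 went from 0.556 to 1.25 CPM in RT112 control libraries to 7.12 to 7.32 CPM with CM-1758, and in TCCSUP from 21.1 to 21.4 CPM to 32.3 to 35.3 CPM. It was 1.56 to 1.68 CPM against 8.55 to 14.3 CPM in 253J and 3.05 to 4.82 CPM against 8.05 to 9.52 CPM in J82. ITGAX, an integrin of myeloid cells, rose in all 4 lines (log2 fold change 2.46, 3.12, 5.55 and 7.14 in 253J, J82, RT112 and TCCSUP). CD14 rose in RT112 from 0 to 1.16 CPM, and went from 11.1 to 7.62 CPM in TCCSUP without a call (edgeR adjusted p = 0.188). CSF1R, named after its values were seen, rose in 253J (0 to 2 CPM), RT112 (0.134 to 1.55 CPM) and TCCSUP (0.545 to 9.7 CPM). In J82 it was not called (0.0182 to 0.0358 CPM). SPI1, the myeloid partner of IRF4 and IRF8, and MS4A1 (CD20) had no read in any of the 16 libraries. PTPRC, which encodes CD45 and was named after its values were seen, fell in TCCSUP from 9.58 to 1.12 CPM (edgeR adjusted p = 0.00188) and rose in J82 from 0.0925 to 0.921 CPM (0.0211). The part of other cell types in the counts of IRF4 and IRF8 was not tested.

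Among the 9 receptors, kinases and STATs upstream of IRF9 and IRF1, 2 rose and 4 fell in 253J, 0 rose and 3 fell in J82, 3 rose and 1 fell in RT112, and 1 rose and 5 fell in TCCSUP. Over all tested genes, 24% to 32% rose and 18.5% to 22.4% fell, depending on the line. The medians of the 9 genes were -0.29, -0.21, 0.03 and -0.52 on the log2 scale. IFNGR1, the ligand-binding chain of the interferon-gamma receptor, rose in TCCSUP (log2 fold change 0.46). IFNGR2, its partner chain, fell in 253J, RT112 and TCCSUP (-0.60, -0.76 and -0.71). TYK2, the kinase bound to the type I interferon receptor, fell in TCCSUP and J82 (-0.88 and -0.49).

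Adaptors and kinases that lead to IRF3, IRF5 and IRF7 were tested for 14 of 15 genes. Of these 4 rose and 5 fell in 253J, 1 rose and 4 fell in J82, 2 rose and 5 fell in RT112, and 2 rose and 7 fell in TCCSUP, with medians of 0.14, -0.18, -0.31 and -0.40. Shares over all tested genes were 24% to 32% for rises and 18.5% to 22.4% for falls, depending on the line. IRAK1, a kinase that acts below MYD88, fell in all 4 lines (-1.09, -2.26, -2.12 and -2.29 in 253J, J82, RT112 and TCCSUP). IKBKE, which phosphorylates IRF3 and IRF7, fell in TCCSUP and 253J (-1.60 and -0.86). CHUK rose in 253J, RT112 and TCCSUP (1.08, 0.67 and 0.45), and TICAM1, the adaptor TRIF, rose in RT112 (1.87). STING1, the adaptor of cytosolic DNA sensing, named after its values were seen, had 4 reads in 1 of the 4 libraries of 253J and 0 in the others, and it fell in J82, RT112 and TCCSUP (-2.81, -1.25 and -3.25).

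Partner proteins of the family were tested for 11 of 12 genes, of which 4 rose and 1 fell in 253J, 1 rose and 3 fell in J82, 4 rose and 2 fell in RT112, and 3 rose and 2 fell in TCCSUP. By line, 24% to 32% of all tested genes rose and 18.5% to 22.4% fell. The medians of the 11 genes were 0.00, -0.32, 0.33 and 0.03. BCL6, a repressor known from germinal centre B cells, rose in 253J and TCCSUP (log2 fold change 1.57 and 0.54). The coactivator EP300 rose in 253J and RT112 (0.92 and 0.93), whereas its relative CREBBP fell in 253J, J82 and TCCSUP (-0.96, -1.28 and -0.91). BATF, which pairs with IRF4 and IRF8 on composite sites, fell in RT112 (-2.32).

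Interferons themselves were scarcely counted. Of 10 ligand genes only IFNB1 and IFNE passed the filter. IFNB1, a target of IRF3 and IRF7, averaged 1.17 CPM in control J82 and at most 0.243 CPM in any other group. It was called lower in J82 (log2 fold change -2.24, edgeR adjusted p = 0.0306). Control J82 is the group through which it mainly entered the test, and the fall is counted from that group. IFNE, an interferon of epithelia, averaged 9.64 CPM in 253J control and 3.68 CPM with CM-1758 (-1.38, edgeR adjusted p = 0.00444), and had no read in RT112. For the 2 genes the medians were -1.53, -1.21, -1.52 and -2.52 in 253J, J82, RT112 and TCCSUP. Called lower were 1 gene in 253J, 1 in J82, and 0 in RT112 and in TCCSUP. In RT112 and TCCSUP, IFNB1 averaged only 0.0339 and 0.0976 CPM in control and 0 with CM-1758, so the medians of these lines show no size of effect. The other 8 ligand genes had summed levels too low to test.

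Neighbouring or overlapping genes were tested for 8 of 9 in the data, and 2 rose and 3 fell in 253J, 0 rose and 6 fell in J82, 0 rose and 1 fell in RT112, and 1 rose and 4 fell in TCCSUP, with medians of -0.02, -0.68, -0.11 and -0.29. Among all tested genes 24% to 32% rose and 18.5% to 22.4% fell, depending on the line. REC8, a meiotic cohesin gene beside IRF9, named after its values were seen, changed by 1.90, -1.94, 0.92 and -1.71 in 253J, J82, RT112 and TCCSUP, with an edgeR adjusted p of 0.0528 in RT112 and of at most 0.000845 in the other lines. RNF31, on the other side of IRF9, rose in 253J (0.50) and fell in J82 (-0.72), and was at 0.20 in RT112 and 0.15 in TCCSUP without passing. IRF1-AS1, antisense to the IRF1 locus and also named afterwards, held 22 to 101 reads in control libraries and fell in 253J, J82 and TCCSUP (-2.21, -3.59 and -2.04, and -0.63 in RT112, edgeR adjusted p = 0.276). The libraries were made with a stranded kit, but whether the counting used strand is not given in the sources used here, so reads of overlapping genes may be shared. BCL2L12, which abuts IRF3, fell in TCCSUP and 253J (-0.95 and -0.86). DUSP22, near IRF4, fell in J82, 253J and RT112 (-0.85, -0.67 and -0.55). PHRF1 beside IRF7 rose in TCCSUP (0.80), where IRF7 fell.

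Across the 13 epithelial and urothelial markers, 3 rose and 3 fell in 253J, 4 rose and 1 fell in J82, 2 rose and 2 fell in RT112, and 5 rose and 4 fell in TCCSUP, with medians of 0.00, 0.25, 0.00 and 0.40. As for the other lists, 24% to 32% of all tested genes rose and 18.5% to 22.4% fell, depending on the line. KRT18 fell in TCCSUP and 253J (-2.57 and -1.60) and rose in J82 (0.65). KRT7 fell in J82 and RT112 (-1.82 and -0.91). TP63, a basal cell factor, rose in 253J and TCCSUP (6.35 and 2.10), and GATA3 passed in no line. In all of these lists a tested gene with no count in a line stands at 0 in the median and among those not called. NOS2, IKZF1 and UPK3A, of the lists of IRF1 targets, partners and epithelial markers, had no read in any control group. They entered the test through treated groups, where they could only be called higher.

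Over the 16 libraries the pattern of each member could be matched against 14207 genes by Pearson's r of log2 CPM, a description only, since the libraries share lines and depth. IRF7 was close to MSANTD3 (r = 0.977) and ANXA5 (0.947). IRF9 was most like ANKRD13A (0.936), WARS1 (0.901) and RSAD2 (0.896), the antiviral enzyme viperin. For IRF5 the closest were B4GALT6 (0.970), KIAA1549 (0.963) and P2RY1 (0.956), and for IRF3 they were RNF4 (0.977), TOMM34 (0.973) and TMEM40 (0.959). IRF2 was nearest to ANP32B (0.965), RIN2 (0.958) and ZFP30 (0.937). Among the matches of IRF1 were SH3BP4 (0.822) and PATL1 (0.815). Between members, the highest r was 0.614, of IRF7 with IRF9.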

How the data were processed

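RNA-seq was performed by the authors on stranded, ribosomal RNA-depleted total RNA of 16 libraries. Values are raw counts, deposited by the authors as whole reads per gene symbol without normalization. The submitters' processing notes name HISAT2, StringTie and GRCh37, and no versions are given in the sources used here, so no gene coordinates are printed on that build. Columns were assigned to samples from the labels, with 0 left over.

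From these counts, 21297 of 35993 genes passed filterByExpr (minimum count 10, 8 groups), and edgeR 4.0.16 (R 4.3.3) was run with TMM scaling and its quasi-likelihood test, with 8 residual degrees of freedom. CM-1758 was contrasted with control in each line, p-values were adjusted over all tested genes, and an adjusted p under 0.05 was a call. The paper used DESeq2, here an alternative (1.42.0). Standard errors are the log2 fold change over the square root of F. Interaction was an F test of the line effects, the common effect came from line plus treatment, and the IRF1 to IRF2 difference was tested over 1296 exact permutations. CPM are TMM-scaled, log2 CPM has a prior count of 2, and 3 counts were the floor. Intervals of count ratios (95%, exact) cover counting error only. Levels per kb use union exons of GENCODE 29. Scripts were tested on simulated data.

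The members and lists were chosen with earlier results of these data known. Named are the members, the 2 highest and 2 lowest genes of each list by mean log2 fold change among genes with mean log2 CPM above 0, and the 3 genes most like each member at that level; some names that these rules yield are left out of the text. Alternatives were RLE factors, library size alone, DESeq2 and edgeR by line, other filters, no small noncoding RNA genes, a replicate block and leaving out each library. Total counts had a median of 28332731, and the precision of single counts follows from them.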

Additional observations from a re-analysis of the deposited data

Results flagged for a closer look

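The effect of CM-1758 differed between lines for 4 members in edgeR's interaction test, with an adjusted p of 0.00528 for IRF1, 0.000128 for IRF5, 2.02e-05 for IRF7 and 1.78e-07 for IRF9. IRF7 had no read in RT112, so its difference can be shown only between the lines other than RT112. Over the alternatives that kept all 4 lines, the adjusted p was 2.52e-05 to 0.0295 for IRF1, and it stayed at or under 0.000549 for IRF5, 0.000291 for IRF7 and 1.41e-06 for IRF9 where the gene was fitted. Without RT112, a setting chosen after seeing the data, it was 0.59 for IRF1, whose call thus rests on that line, 0.000568 for IRF5, 2.06e-05 for IRF7 and 5.88e-06 for IRF9. IRF1 rose in 2 of 2 RT112 libraries and stood below both controls in 2 of 2 libraries of 253J and of TCCSUP. IRF5 was higher in 2 of 2 treated libraries of J82 and TCCSUP and lower in 2 of 2 of 253J. IRF7 and IRF9 were higher in 2 of 2 treated libraries of 253J and lower in 2 of 2 of J82 and TCCSUP. Dose and line change together in these groups and cannot be told apart.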

How the results depend on the processing

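Of 725 values for single members under the alternatives, 670 kept their direction and their side of the limit, 29 lost a call, 11 gained one and 15 changed sign, none of the last called. With at least 10 counts in every library, IRF4, IRF5, IRF7 and IRF8 left the test by construction, and the called members fell to 3 in J82 and to 2 in each of 253J, RT112 and TCCSUP, those past the study's thresholds to 2, those with an interaction to 2, with a control difference to 4 and with a common effect to 1. IRF3 changed sign in J82 to 0.035 with RLE factors and with DESeq2 over all lines, 0.09 with library size alone, 0.058 with the stricter filter, 0.001 without control replicate 3 and 0.127 without CM-1758 replicate 1 of J82 (-0.164 to 0.127 over libraries left out). In RT112 its log2 fold change became 0.024 with RLE factors, 0.005 with DESeq2, 0.094 with library size alone, 0.074 with the stricter filter and 0.06 without CM-1758 replicate 2 (-0.184 to 0.06 over libraries left out). In TCCSUP it became 0.231 with library size alone, 0.073 with the stricter filter and 0.102 without control replicate 2 (-0.249 to 0.102 over libraries left out). IRF5 in RT112 became 0.031 with library size alone. The cause of these shifts was not tested.

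Leaving out 1 library gave 3 to 4 called members in 253J, 3 to 6 in J82, 1 to 4 in RT112 and 3 to 5 in TCCSUP, and 4 to 7 past the study's thresholds. J82 fell to 3 without its CM-1758 replicate 3, RT112 to 2 without control replicate 1 and to 1 without control replicate 2, and TCCSUP to 3 without CM-1758 replicate 2. A control difference was found for 5 to 8 members, an interaction for 4 and a common effect for 3 throughout. The mean change of the IRF1 to IRF2 difference was 0.581 to 0.79 (exact p 0.00154 to 0.0293). An arm left with 1 library was assumed to vary like the other groups.

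With each line alone, edgeR called 6 members each in 253J and TCCSUP, 4 in J82 and only 3 in RT112, and 6 changes passed the study's thresholds. DESeq2 called 5 in 253J, with the other lines as in edgeR, and 5 changes passed. Deviations of libraries with the same number were correlated most for J82 (r = 0.218) and little for TCCSUP (0.017) or RT112 (0.043). The 253J groups had only number 3 in common. With 2 libraries per group, such a correlation cannot decide whether the numbers pair the libraries, and pairing was not tested further. The replicate block gave 21 calls against 18, with all 18 kept and IRF1 in 253J and TCCSUP and IRF8 in J82 added, so that 5 members were called in 253J, 6 each in J82 and TCCSUP and 4 in RT112. Without RT112, a setting chosen after seeing the data, 3 members kept an interaction. With 2 libraries per group and under 10 reads in many groups, changes of IRF4 in J82 and TCCSUP were not detectable at this depth, and that of IRF8 in J82 was called under the block (edgeR adjusted p = 0.0489) and without CM-1758 replicate 1 of J82 (0.00882).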
